A study of Mus musculus with 4 samples.

Results

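Conventional dendritic cells were followed in the stroke-injured hemisphere of mice whose infarct cavity had been filled with hydrogel microspheres, and 363 of 55902 cells met their definition. Members were chosen by measured UMIs, so the genes of the rule are a description here. A cell was counted when it had at least 2 unique molecular identifiers (UMIs, the count of distinct captured transcripts) over the 5 dendritic genes Flt3, Cd209a, Xcr1, Clec9a and Zbtb46 and at least 5 UMIs of Cd74, the invariant chain of MHC class II. Cells in which Ccr7 and Fscn1, markers of mature migrating dendritic cells, were both detected were set aside, as were cells with any UMI of Cd3e, Cd3g, Trac, Cd79a or Ms4a1 and cells with more than 2 UMIs over the microglial genes P2ry12, Tmem119, P2ry13, Gpr34, Olfml3 and Fcrls. Members fell into 106 Xcr1/Clec9a cells (a UMI of Xcr1 or Clec9a, none of Cd209a), 217 Cd209a cells (the reverse), 14 cells with both kinds of transcript and 26 with neither. These genes chose the cells, so their values are given as a description, and so is every contrast of the cells with others.

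All animals were wild-type mice with ischemic stroke that received microspheres (MAPS) at day 5, and the ipsilateral hemisphere was taken at day 14. In 3 groups the microspheres came with extracellular vesicles (EV). These are IL-4 C1q EV+MAPS, called IL-4/C1q EV here, then IL-1a TNFa C1q EV+MAPS, called IL-1a/TNFa/C1q EV, and UT EV+MAPS, called UT EV. The group MAPS had microspheres with no vesicles named. The series title names the vesicles as astrocyte-derived, and the labels do not spell out UT. Strain, age, and the number of animals behind a library were not given in the sources used here. Each group is 1 library, so no difference has a replicate check and no p-value is given. Treatment, animals, tissue piece and sequencing run cannot be told apart. All intervals are exact 95% intervals that cover counting error only.

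Conventional dendritic cells are professional antigen-presenting leukocytes that take up material in tissues, load it on MHC molecules and prime T cells. They come in a pair of lineages. Type 1 cells, marked in mice by Xcr1 and Clec9a and dependent on the transcription factors Irf8 and Batf3, are specialised in presenting the material of dead cells to CD8 T cells. Type 2 cells, many of which carry Cd209a, Clec10a and Sirpa, mainly present to CD4 T cells, share several genes with monocytes and depend on Irf4. In the healthy brain both sit mostly in the meninges and choroid plexus, and they enter the parenchyma after injury.

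Depth differed between the libraries. Members had a median of 5193 UMIs in IL-4/C1q EV, 4351 in IL-1a/TNFa/C1q EV, 5416 in UT EV and 7772 in MAPS, against 2480, 2608, 2673.5 and 4557 UMIs over all cells of the same libraries. Barcodes numbered 13076 to 15138 a library against a stated loading target of 8000 cells, and a doublet caller marked 3.63% to 5.23% of cells, among them 14 members (6, 3, 0 and 5 in the order above). Cell barcodes shared between libraries numbered 324 of 55578, of which 3 belonged to a member in 1 of its libraries and none to members in 2. No deposited barcode had fewer than 1233 UMIs in IL-1a/TNFa/C1q EV, where the minimum was 500 UMIs in the other libraries.

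The genes that defined the cells were sparse. Flt3, the receptor for the growth factor of dendritic cells, had a UMI in 30.5% of members in IL-4/C1q EV, 36.2% in IL-1a/TNFa/C1q EV, 58.2% in UT EV and 80.6% in MAPS. Zbtb46, a transcription factor of the conventional lineage, had one in 6.32%, 8.47%, 9.09% and 36.1% of members of these libraries. Many members stood at the threshold, with exactly 2 UMIs over the 5 genes in 35 of 95, 79 of 177, 19 of 55 and 6 of 36 members. Just outside it were 61, 123, 41 and 11 cells with 1 such UMI that met every other condition. In oligodendrocytes, which should lack these genes, Cd209a had a UMI in 0%, 0.071%, 0% and 0.258% of cells at a median depth of 3879 to 4474 UMIs in the EV libraries and 7958.5 UMIs in MAPS.

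The label was set against markers that the rule did not use, though the gates bear on some of them. Members needed at least 5 UMIs of Cd74, oligodendrocytes had fewer than 5, and monocytes had no such condition. Macrophages were chosen by Ms4a7 and C1q genes. The summed level of 12 MHC class II genes was 36976, 39496, 36005 and 30890 UMIs per 1000000 UMIs (counts on this scale are called CPM) in members of IL-4/C1q EV, IL-1a/TNFa/C1q EV, UT EV and MAPS, against 431, 558, 444 and 658 CPM in oligodendrocytes. Itgax, which encodes CD11c, was low but above oligodendrocytes in every library, at 37.8, 53.4, 90.3 and 161 CPM in members against 0.624, 1.78, 1.55 and 6.72 CPM in oligodendrocytes. The macrophage transcript C1qa stood at 534, 602, 238 and 145 CPM in members, below its 1116, 1119, 1018 and 742 CPM in oligodendrocytes, and at 2989 to 9195 CPM in macrophages. Monocytes lay closer to the members. The 12 genes of the list common to conventional dendritic cells summed to 1354, 1102, 1334 and 2701 CPM in members against 1040, 917, 1237 and 1157 CPM in monocytes. MHC class II genes summed to 15364, 28905, 14241 and 8964 CPM in monocytes, and the 18 genes of the Cd209a lineage list to 4140, 3669, 3448 and 3994 CPM in Cd209a cells against 3096, 2179, 2852 and 2687 CPM in monocytes. By these lists the members stood apart from oligodendrocytes, and by less from monocytes. The monocytes numbered 47, 27, 13 and 19 cells. In them NK cell genes summed to 6.08, 8.82, 459 and 4361 CPM, and brain cell genes to 1192, 282, 838 and 5036 CPM. What such transcripts add to the monocyte values, in MAPS above all, was not tested. The part of the Cd74 conditions in the MHC class II gaps was not tested, and C1qa in macrophages is a description. Neutrophil genes summed to 380 CPM in IL-4/C1q EV, 153 CPM in IL-1a/TNFa/C1q EV, 24.1 CPM in UT EV and 19.3 CPM in MAPS, and to at most 57.6 CPM within either subset.

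Plasmacytoid dendritic cells, the interferon producers of the blood, express Flt3 and, in part, Cd209a and were not removed by the rule. At least 3 UMIs over the plasmacytoid genes Siglech, Ccr9, Klk1, Cox6a2, Ly6d and Pacsin1 were found in 6, 18, 8 and 4 members of the libraries in the order above. They were 9 of the 14 members with both kinds of transcript, 19 of 217 Cd209a cells, 5 of 106 Xcr1/Clec9a cells and 3 of the 26 with neither. The cells with both kinds had 486 CPM of Siglech and 1221 CPM of Irf8 against 45.8 and 855 CPM in Xcr1/Clec9a cells and 53.9 and 110 CPM in Cd209a cells. The 26 cells with neither had entered through Flt3 and Zbtb46, and carried 536 CPM of Irf8, 1750 CPM of C1qa and 329 CPM of Flt3.

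Conventional dendritic cells made up 0.663% of cells (95 of 14325, interval 0.537% to 0.81%) in IL-4/C1q EV, 1.18% (177 of 14978, 1.01% to 1.37%) in IL-1a/TNFa/C1q EV, 0.431% (55 of 12766, 0.325% to 0.56%) in UT EV and 0.26% (36 of 13833, 0.182% to 0.36%) in MAPS. IL-1a/TNFa/C1q EV was highest and MAPS lowest. The share in IL-4/C1q EV was 1.54 times that in UT EV (1.09 to 2.19), and that in IL-1a/TNFa/C1q EV was 2.74 times that in UT EV (2.02 to 3.78). These ratios share UT EV as their denominator. IL-4/C1q EV stood at 0.561 times IL-1a/TNFa/C1q EV (0.433 to 0.724). UT EV stood at 1.66 times MAPS (1.07 to 2.59), a ratio that was 1.15 (0.62 to 2.11) with every cell thinned to 2000 UMIs, 1.3 (0.779 to 2.19) with 3 dendritic UMIs required and 1.59 (0.994 to 2.58) without the plasmacytoid-marker members. With 3 dendritic UMIs required the ratio of IL-4/C1q EV to UT EV was 1.49 (0.967 to 2.31). Over the 6 alternatives run, IL-1a/TNFa/C1q EV stayed between 2.32 and 3.39 times UT EV.

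**Figure D1:**
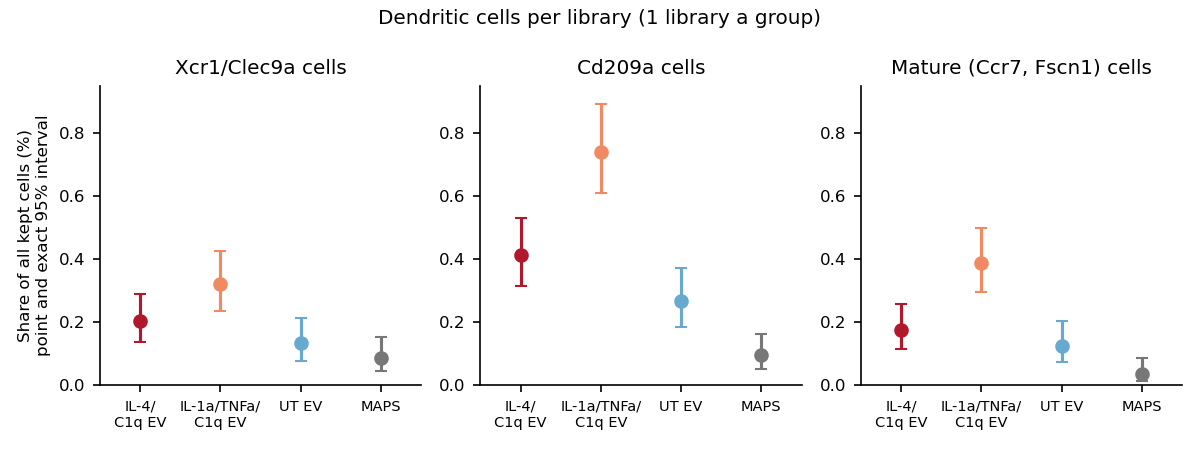
Share of Xcr1/Clec9a cells, Cd209a cells and mature Ccr7 and Fscn1 cells among all kept cells (%, y axis) in each library (x axis), with exact 95% counting intervals and 1 library a group. In all panels IL-1a/TNFa/C1q EV is highest (0.32%, 0.741% and 0.387%) and MAPS lowest (0.0867%, 0.094% and 0.0361%).

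Both subsets followed this order. Xcr1/Clec9a cells were 0.202% of cells in IL-4/C1q EV, 0.32% in IL-1a/TNFa/C1q EV, 0.133% in UT EV and 0.0867% in MAPS, and Cd209a cells were 0.412%, 0.741%, 0.266% and 0.094%. Among Cd209a cells, those with a UMI of Flt3 or Zbtb46 did not follow it. They were 10 of 14325 cells in IL-4/C1q EV, 32 of 14978 in IL-1a/TNFa/C1q EV, 18 of 12766 in UT EV and 10 of 13833 in MAPS. Both are genes of the rule, so these counts are a description. Cd209a cells in IL-1a/TNFa/C1q EV were 2.78 times as frequent as in UT EV (1.88 to 4.22), and Xcr1/Clec9a cells 2.41 times (1.36 to 4.46). In IL-4/C1q EV the same ratios to UT EV were 1.55 (0.997 to 2.43) and 1.52 (0.808 to 2.95), whose intervals include 1. UT EV had 2.83 times the share of Cd209a cells in MAPS (1.46 to 5.85) and 1.54 times the share of Xcr1/Clec9a cells (0.691 to 3.52). Xcr1/Clec9a cells were 33% of the cells assigned to a subset in IL-4/C1q EV, 30.2% in IL-1a/TNFa/C1q EV, 33.3% in UT EV and 48% in MAPS (27.8% to 68.7%, 12 of 25 cells). The intervals of these 4 shares overlap. Mature Ccr7 and Fscn1 cells numbered 25, 58, 16 and 5, which is 20.8%, 24.7%, 22.5% and 12.2% of mature plus conventional cells.

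Of 4512 genes with at least 30 UMIs over both subsets, 44 (0.975%) were at least 2-fold higher in Xcr1/Clec9a cells in every library and 74 (1.64%) at least 2-fold higher in Cd209a cells in every library, the genes of the rule left out. By list, 3 of 16 measured transcription factors were higher in Xcr1/Clec9a cells and none in Cd209a cells, whereas 4 of 13 uptake and lectin receptors, 2 of 8 cytokines, 2 of 12 chemokine ligands and 2 of 6 chemokine receptors were higher in Cd209a cells and none in Xcr1/Clec9a cells. None of 14 cytokine receptors passed in either direction. Irf8 stood at 744, 573, 759 and 1751 CPM in Xcr1/Clec9a cells of IL-4/C1q EV, IL-1a/TNFa/C1q EV, UT EV and MAPS, against 75.1, 111, 125 and 176 CPM in Cd209a cells. The lowest Xcr1/Clec9a value lay above the highest Cd209a value. Batf3, its partner in the type 1 lineage, had 133, 216, 245 and 76.5 CPM against 64.9, 101, 93.8 and 10.4 CPM, and Id2, a repressor needed for these cells, 709, 611, 539 and 960 CPM against 95.6, 105, 172 and 156 CPM.

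Of the type 1 lineage list, 12 of the 15 members with enough UMIs were higher in Xcr1/Clec9a cells in all 4 libraries and none was higher in Cd209a cells. Tlr3, the endosomal sensor of double-stranded RNA, had 104, 91, 98 and 153 CPM in Xcr1/Clec9a cells against 10.2, 10.9, 15.6 and 31.1 CPM in Cd209a cells. Itgae, the CD103 integrin chain, had 98, 79.7, 73.5 and 289 CPM against 10.2, 17.5, 15.6 and 0 CPM. Cd24a, a surface glycoprotein, had the largest consistent ratio by the ranking used, with 104, 133, 65.3 and 501 CPM against 10.2, 8.74, 5.21 and 31.1 CPM. Ppt1 and Naaa, lysosomal enzymes, Snx22, a sorting nexin, and Ifi205, an interferon-inducible gene, were also in this group, as were Rab7b and Btla. Cadm1, Wdfy4 and Gcsam did not reach 2-fold in every library. Outside that list, Trim35 had 467, 660, 424 and 493 CPM in Xcr1/Clec9a cells against 34.2, 65.6, 31.3 and 20.8 CPM in Cd209a cells, and Ffar4, a receptor for long-chain fatty acids, 86.5, 83.4, 73.5 and 153 CPM against 0, 6.56, 5.21 and 10.4 CPM. Cst3, cystatin C, was abundant in both, with 33591, 37866, 26597 and 15189 CPM against 10548, 16781, 12376 and 5333 CPM.

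**Figure D2:**
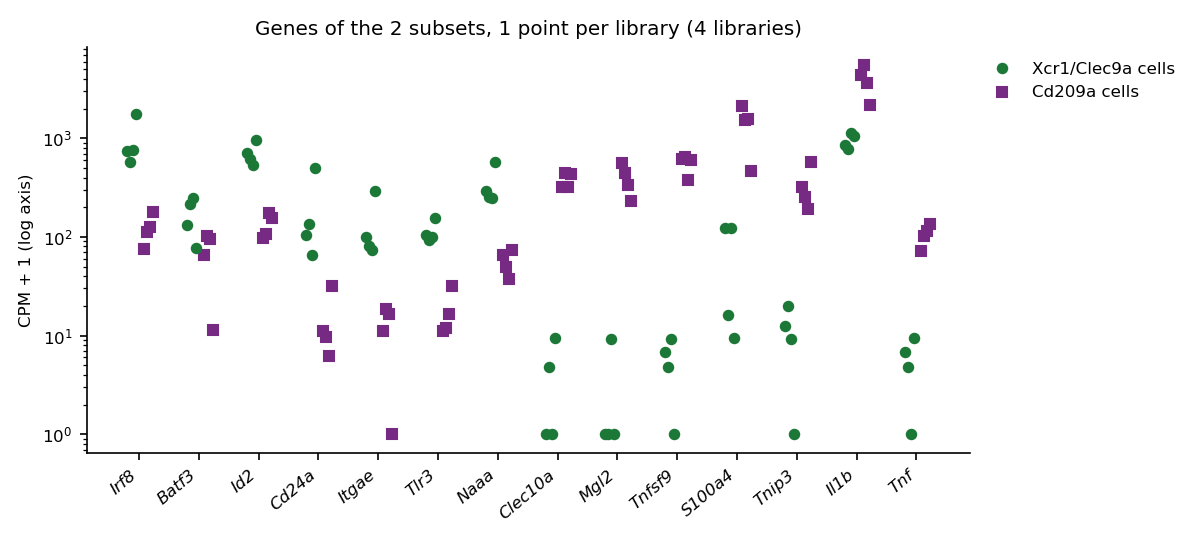
Level of 14 genes in Xcr1/Clec9a cells (circles) and Cd209a cells (squares), as CPM + 1 on a log axis, with 1 point for each of the 4 libraries (left to right IL-4/C1q EV, IL-1a/TNFa/C1q EV, UT EV, MAPS). Irf8 to Naaa are higher in Xcr1/Clec9a cells and Clec10a to Tnf in Cd209a cells within every library.

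Of the type 2 list, 5 of the 13 members with enough UMIs were higher in Cd209a cells in all 4 libraries and none in the other direction. Clec10a, a galactose-binding lectin of type 2 cells, had 2 UMIs in all Xcr1/Clec9a cells together, against 403 UMIs in Cd209a cells at 321, 448, 323 and 436 CPM. Mgl2, its close paralogue, had 1 UMI against 456 UMIs. The others were S100a4, Tnip3 and Il1r2. Sirpa and Itgam did not reach 2-fold in every library, and Irf4 had too few UMIs. Tnfsf9, which encodes the co-stimulatory 4-1BB ligand, ranked first among all genes, with 5.76, 3.79, 8.16 and 0 CPM in Xcr1/Clec9a cells against 611, 642, 380 and 602 CPM in Cd209a cells.

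Il1b, the interleukin-1β gene, had 859, 778, 1143 and 1045 CPM in Xcr1/Clec9a cells against 4400, 5472, 3667 and 2168 CPM in Cd209a cells. Tnf had 3 UMIs in all Xcr1/Clec9a cells against 102 in Cd209a cells. Nfkbia, a feedback inhibitor of NF-κB, had 133, 345, 212 and 212 CPM against 2145, 2297, 2089 and 1411 CPM. The chemokine genes Ccl2 and Ccl3, the chemokine receptors Ccr1 and Cx3cr1, the Fc receptor genes Fcer1g and Fcgr1, and Tlr2 were on the same side. Wfdc17, Ms4a4c, Mcemp1 and Cd72 were also among the first 10. Of the list common to both lineages, which includes Itgax, Spi1 and Ciita, 0 of 11 measured members differed 2-fold in every library, beside the 0.975% and 1.64% of all genes given above.

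Cd209a cells of the libraries were unlike in how many carried a gene of the conventional lineage. A UMI of Flt3 or Zbtb46 was present in 10 of 59 Cd209a cells (16.9%, 8.44% to 29%) in IL-4/C1q EV, 32 of 111 (28.8%, 20.6% to 38.2%) in IL-1a/TNFa/C1q EV, 18 of 34 (52.9%, 35.1% to 70.2%) in UT EV and 10 of 13 (76.9%, 46.2% to 95%) in MAPS. Their median depth was 5005, 4060, 4979.5 and 6721 UMIs. Cells that lacked both genes entered the subset through Cd209a alone. Both are genes of the rule, and a cell with 1 UMI of Cd209a needed Flt3 or Zbtb46 to reach 2. The rule therefore sets these shares in part, and they are a description. The monocyte list, 14 genes, summed to 4253, 2900, 4469 and 4347 CPM in Cd209a cells against 38028, 27891, 29220 and 14482 CPM in monocytes of these libraries. Those monocytes were chosen by Ccr2 and Ly6c2, which are on the list, so this contrast is a description. Of its members with enough UMIs, 2 of 7 were called higher and 1 lower in IL-4/C1q EV than in UT EV, and 3 of 8 higher against IL-1a/TNFa/C1q EV, by the rule given below, beside 2.27%, 1.4% and 2.76% of all genes measured. Fcgr1, the high-affinity IgG receptor used to tell monocyte-derived cells from type 2 cells, had 232 CPM in IL-4/C1q EV, 41.5 in IL-1a/TNFa/C1q EV, 52.1 in UT EV and 72.6 in MAPS. Plac8 had 1237, 461, 271 and 685 CPM, and Ly6c2 181, 39.3, 115 and 104 CPM. Over all cells Fcgr1 was at 391, 214, 228 and 174 CPM. The cells are called by their marker here, and the log2 ratios of several named genes are also given within the 10, 32, 18 and 10 cells with Flt3 or Zbtb46. There Fcgr1 was at 1.92 and Ly6c2 at 0.60 for IL-4/C1q EV over IL-1a/TNFa/C1q EV, neither called any longer. For IL-4/C1q EV over UT EV, Fcgr1 at 2.89, Plac8 at 1.33 and Lyz2 at -1.96 kept direction and side of the threshold. Ly6c2 changed direction in that comparison, at -1.99. Over all Cd209a cells but the cell with most UMIs of the gene, Fcgr1 (2.04) and Plac8 (2.11) stayed called in it. Lyz2 was not called there (-0.12), nor with cells thinned after the rule (-0.74).

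Between libraries, a gene of Cd209a cells was called when the interval of its CPM ratio lay wholly beyond 1.5-fold, among genes with at least 30 UMIs in the 2 sums. Against UT EV, IL-4/C1q EV had 39 genes called higher (2.27% of 1717) and 24 lower (1.4%). Interferon-stimulated genes and a pair of chemokines led the higher side. Cxcl10, a chemokine for Cxcr3-bearing lymphocytes, had 120 UMIs in 12 of 59 cells (410 CPM) in IL-4/C1q EV against 1 UMI in 1 of 34 cells (5.21 CPM) in UT EV, a ratio of 78.7 (13.9 to 3134). Cxcl9, of the same family, had 80 UMIs in 6 cells against 3 UMIs in 3 cells, a ratio of 17.5 (5.77 to 86.6). Their UMIs came from a minority of cells, and both calls held without the cell with most UMIs of the gene (log2 ratio 5.12 and 3.59). Over all conventional dendritic cells together the log2 ratio of Cxcl9 was -0.54. Over all cells, Cxcl10 had 165 CPM in IL-4/C1q EV and 150 CPM in UT EV, and in oligodendrocytes 16.8 and 28.5 CPM.

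Ifi27l2a, an interferon-induced mitochondrial gene, had 4618 CPM in IL-4/C1q EV, 848 in IL-1a/TNFa/C1q EV, 1261 in UT EV and 405 in MAPS. Ifitm1, a membrane protein that restricts viral entry, had 1431, 341, 255 and 322 CPM, and Ifi204, a DNA sensor, 123 CPM (36 UMIs in 20 cells) in IL-4/C1q EV against 5.21 CPM (1 UMI) in UT EV. IL-4/C1q EV was the highest library for each of them. The log2 ratios of IL-4/C1q EV to UT EV were 1.87 for Ifi27l2a, 2.49 for Ifitm1, 4.56 for Ifi204 and 2.19 for Plac8. Ifi204 belongs to a family of near-identical genes (Ifi205, Ifi206, Ifi211), among which reads can be split by the counting.

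The type I interferon list held 21 genes. In Cd209a cells 12 had enough UMIs for IL-4/C1q EV over UT EV, of which 11 were higher and 4 called, with a median log2 ratio of 1.1 beside 0.009 over all genes measured. For IL-4/C1q EV over IL-1a/TNFa/C1q EV, 11 had enough, all 11 were higher and 8 were called, with a median of 1.75 beside 0.046. Of all genes measured, 2.27% and 2.76% were called higher in these comparisons. Isg15, a ubiquitin-like modifier, had 1137 CPM (1019 to 1266, in 51 of 59 cells) in IL-4/C1q EV, 225 (184 to 273, 34 of 111 cells) in IL-1a/TNFa/C1q EV, 490 (396 to 599, 11 of 34 cells) in UT EV and 114 (57 to 204, 3 of 13 cells) in MAPS. Irf7, the transcription factor that amplifies the response, had 154, 26.2, 62.5 and 31.1 CPM, and Oas1a, a sensor of double-stranded RNA, 120, 21.9, 20.8 and 31.1 CPM. Ifit3, which binds viral RNA complexes, had 222, 50.3, 120 and 83 CPM. The 3 other libraries did not keep 1 order among themselves for these genes. Over IL-1a/TNFa/C1q EV the log2 ratios were 2.34 for Isg15, 2.55 for Irf7, 2.45 for Oas1a and 2.14 for Ifit3, all with intervals beyond 1.5-fold. Within the cells with Flt3 or Zbtb46 the ratios were 1.43 for Isg15, 3.51 for Irf7, 0.34 for Oas1a and 0.60 for Ifit3, and those of Oas1a and Ifit3 were no longer called. Against UT EV, Oas1a was at -0.11 within those cells, and Rtp4, also on the list, was at 2.21 and no longer called. Irf7 at 1.73 and Ifit2 of the list at 0.89 kept direction, and neither was called within those cells or over all Cd209a cells. Ifitm1 at 3.05 and Ifi27l2a at 1.71 kept direction and the call. In oligodendrocytes Isg15 was at 131, 51.4, 47.1 and 10.2 CPM, and over all cells at 750, 175, 297 and 44.4 CPM.

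These 4 genes had the largest absolute log2 ratio on the list in that comparison, and their promoters are shown because interferon acts on such genes through the interferon-stimulated response element. The sequences are RefSeq promoters of build GRCm38.p6 (the deposited counts are on GRCm39), from 250 bases before to 50 after the start of the gene, written 5′ to 3′ on the gene's strand, with capitals marking each match to GAAA followed by any 2 bases and GAAA again or, on the other strand, TTTC, any 2 bases and TTTC.
Irf7 (chr7:141266375-141266674, minus strand): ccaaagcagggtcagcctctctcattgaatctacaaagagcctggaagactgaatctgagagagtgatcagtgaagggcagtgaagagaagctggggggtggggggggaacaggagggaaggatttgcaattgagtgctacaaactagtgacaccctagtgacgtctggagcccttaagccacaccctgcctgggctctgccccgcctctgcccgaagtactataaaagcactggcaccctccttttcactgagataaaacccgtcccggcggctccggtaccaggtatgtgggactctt
Oas1a (chr5:120907476-120907775, minus strand): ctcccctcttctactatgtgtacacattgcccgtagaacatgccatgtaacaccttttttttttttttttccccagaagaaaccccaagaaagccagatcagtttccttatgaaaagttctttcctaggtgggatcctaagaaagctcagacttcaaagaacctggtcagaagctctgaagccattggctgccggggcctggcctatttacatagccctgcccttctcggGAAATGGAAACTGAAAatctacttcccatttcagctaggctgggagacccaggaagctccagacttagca
Isg15 (chr4:156200769-156201068, minus strand): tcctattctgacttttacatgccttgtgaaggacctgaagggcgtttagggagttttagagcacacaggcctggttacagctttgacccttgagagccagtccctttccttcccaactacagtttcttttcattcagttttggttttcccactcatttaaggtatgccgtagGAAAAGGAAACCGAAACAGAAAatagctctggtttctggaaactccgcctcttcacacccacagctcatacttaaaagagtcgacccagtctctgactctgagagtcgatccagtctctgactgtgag
Ifit3 (chr19:34583279-34583578, plus strand): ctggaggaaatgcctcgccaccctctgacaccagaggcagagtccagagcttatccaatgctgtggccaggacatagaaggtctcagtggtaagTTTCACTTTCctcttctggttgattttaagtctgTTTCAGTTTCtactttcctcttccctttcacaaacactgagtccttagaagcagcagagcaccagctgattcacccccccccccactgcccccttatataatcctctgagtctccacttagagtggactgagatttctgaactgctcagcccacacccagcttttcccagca

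Isg15 held 3 overlapping matches, Oas1a 2 overlapping matches and Ifit3 2 separate ones, and Irf7 had no match in this window. Of the 21 genes on the list, 16 had a promoter in the table and 11 of these held a match, whereas 3.44% of all 32851 promoters did. A match is a run of letters and not a shown binding site.

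**Figure D3:**
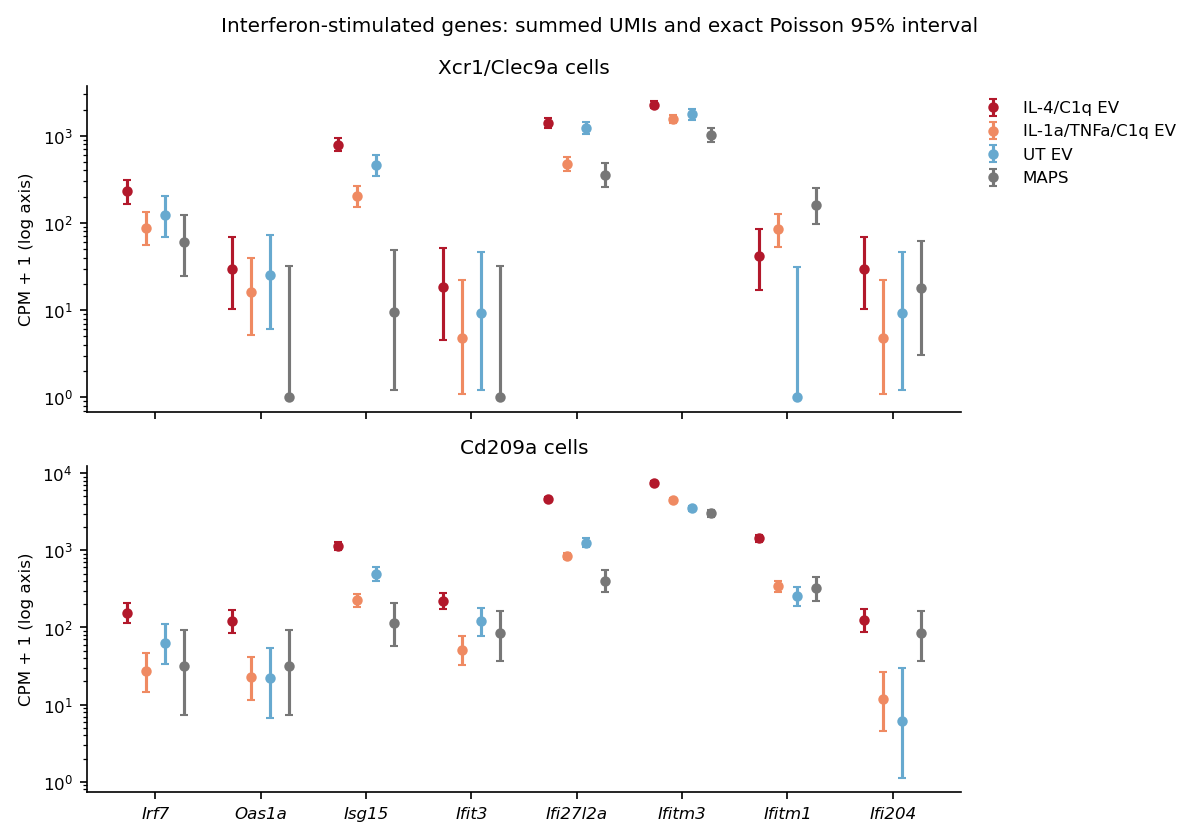
Level of 8 interferon-stimulated genes in Xcr1/Clec9a cells (top) and Cd209a cells (bottom), as CPM + 1 on a log axis, with exact Poisson 95% intervals of the summed UMIs in each of the 4 libraries. Irf7, Oas1a, Isg15, Ifit3 and Ifitm3 are on the list of 21 and Ifi27l2a, Ifitm1 and Ifi204 were named by size. In Cd209a cells IL-4/C1q EV is highest for all 8, as for Isg15 with 1137 CPM.

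Summed over the list, the level was higher across the cells of IL-4/C1q EV. The summed level of a Cd209a cell had a median of 10775 CPM in IL-4/C1q EV, 5520 CPM in IL-1a/TNFa/C1q EV, 4867 CPM in UT EV and 4054 CPM in MAPS. Its quartiles were 7004 and 16517 CPM in IL-4/C1q EV cells, 3584 and 8247 CPM in IL-1a/TNFa/C1q EV cells, 3008 and 7243 CPM in UT EV cells and 2083 and 5054 CPM in MAPS cells. Over the summed cells it was 12065, 6239, 6027 and 4077 CPM, and without the highest cell of each library 11815, 6121, 4959 and 3518 CPM. In Xcr1/Clec9a cells the sums were lower, at 5026, 2663, 3927 and 1887 CPM, with per-cell medians of 4965, 2079, 3021 and 1323 CPM. Mature dendritic cells had 3827, 2102, 3618 and 1591 CPM, monocytes 18764, 7524, 14421 and 3747 CPM, macrophages 6896, 2426, 2956 and 1916 CPM and oligodendrocytes 1167, 577, 490 and 286 CPM. IL-4/C1q EV was highest in each of these 4 populations as in both subsets.

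**Figure D4:**
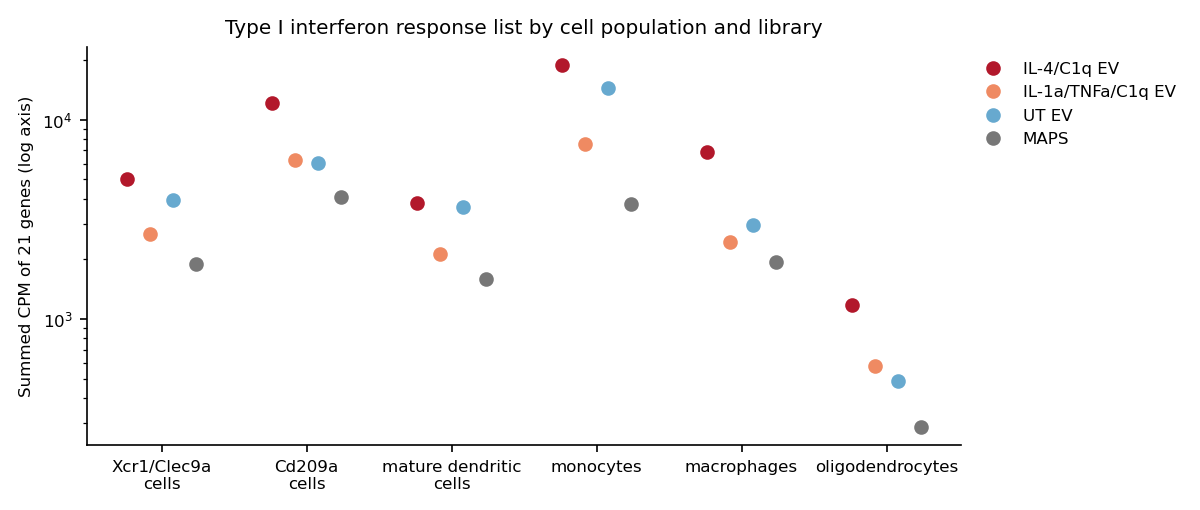
Summed level of the 21 type I interferon response genes (CPM, log axis) in 6 cell populations (x axis), 1 point per library. IL-4/C1q EV is highest in every population, from 1167 CPM in oligodendrocytes to 18764 CPM in monocytes.

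Genes lower in IL-4/C1q EV than in UT EV rested on fewer cells. Of the 24 called, 6 were still called when the cell with most UMIs of each gene was left out, and of the 39 higher, 25 were. A single Cd209a cell of UT EV, with 17605 UMIs against a median of 4979.5 and with 1281 UMIs of C1q genes, Apoe, Lyz2 and Spp1, was the top cell of 13 of the 24. It was not called a doublet. Without it 41 genes were called higher and 15 lower. The inducible heat shock genes Hspa1a and Hspa1b, near-identical copies whose reads can be split, were lower, also without the cell with most UMIs of each gene (log2 ratio -1.74 and -2.33). Hspa1a had 137 CPM in IL-4/C1q EV, 260 in IL-1a/TNFa/C1q EV, 516 in UT EV and 747 in MAPS, and over all cells 181, 195, 329 and 1114 CPM. Tamalin, a scaffold protein gene, had 51.2 against 182 CPM. Psap (304 against 1162 CPM), Prdx1 (359 against 917 CPM) and Hilpda (120 against 302 CPM) were no longer called without their top cell, with log2 ratios of -0.61, 0.06 and -0.20. Within cells with Flt3 or Zbtb46 these 3 were not called either, at -0.88, -0.29 and -1.70.

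IL-1a/TNFa/C1q EV was set against the same UT EV cells as in the comparison above. In Cd209a cells 8 genes were called higher (0.394% of 2030) and 31 lower (1.53%). Without the top cell of each gene 4 and 5 remained, and the UT EV cell described above topped 17 of the 31. Without that cell 5 were higher and 16 lower. With TMM scaling, which raised log2 ratios of this pair by 0.30, the split was 23 higher and 17 lower. Cxcl10 had 94 CPM (43 UMIs in 8 of 111 cells) in IL-1a/TNFa/C1q EV against 5.21 CPM in UT EV. Ccl2, a chemokine for monocytes, had 251 against 36.5 CPM, and both held without their top cell (log2 ratio 3.41 and 2.46). Clec4a3, a C-type lectin receptor, had 101 against 20.8 CPM, and Ifitm6 had 199 CPM in 52 of 111 cells against 67.7 CPM in 7 of 34 cells. Cxcl9 (114 against 15.6 CPM), Ccl17 (531 against 208 CPM) and AA467197 (238 against 93.8 CPM) lost the call without their top cell. Within cells with Flt3 or Zbtb46, Ccl17 had a log2 ratio of -1.41, and Clec4a3 (2.13), Cxcl9 (1.36) and AA467197 (1.36) were not called.

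On the lower side of that pair, Tamalin (37.2 CPM in IL-1a/TNFa/C1q EV against 182 CPM in UT EV) and Nr4a2, an activity-induced nuclear receptor (85.2 against 250 CPM), held without their top cell. Nr4a2 was not called within cells with Flt3 or Zbtb46 (-1.45). Hilpda, Psap and Lgals1 did not, and Prdx1 changed direction (log2 ratio 0.23). On the interferon list 5 genes had enough UMIs, 1 was higher and 1 was called, with a median log2 ratio of -0.40 beside -0.045 over all genes. The called gene, Isg15, stood at -1.12, at 0.50 without the top cell and at 1.96 within cells with Flt3 or Zbtb46. Lysosomal and lipid genes were called lower than in UT EV 6 times of 14 for IL-4/C1q EV and 7 times of 14 for IL-1a/TNFa/C1q EV. Of all genes measured, 1.4% and 1.53% were called lower in these comparisons. A single cell gave 33.5% of the UT EV UMIs of that list, and without the top cell Spp1 was at 0.30 and 0.16, and Trem2 at 1.04 and 0.30, on the log2 scale.

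IL-4/C1q EV and IL-1a/TNFa/C1q EV, the libraries with most Cd209a cells, differed by 62 genes higher (2.76% of 2243) and 14 lower (0.624%) in IL-4/C1q EV. Without the top cell of each gene 37 and 8 remained. With TMM scaling, which lowered log2 ratios of this pair by 0.19, the split was 46 higher and 23 lower. Beside the interferon genes above, Isg20, an interferon-induced exonuclease, had 256 CPM in IL-4/C1q EV against 45.9 CPM in IL-1a/TNFa/C1q EV, and Slfn1, a Schlafen gene of quiescence and interferon response, 133 against 10.9 CPM. Within cells with Flt3 or Zbtb46 the log2 ratio of Isg20 was 0.17, against 2.48 over all Cd209a cells, and was not called. Of the 12 chemokine ligands measured, 3 were called higher and 5 lower. The 3 include Cxcl10, at 410 against 94 CPM, which lost the call without its top cell and stood at -2.83 on the log2 scale within cells with Flt3 or Zbtb46. Ccl17, which attracts Ccr4-bearing T cells and is made by type 2 dendritic cells, had 126 CPM (9 of 59 cells) in IL-4/C1q EV against 531 CPM (34 of 111 cells) in IL-1a/TNFa/C1q EV, with 208 in UT EV and 0 in MAPS. Ccl5, a chemokine for T cells and monocytes, had 143 against 667 CPM, and Ccl3 243 against 544 CPM. Ccl17 and Ccl5 held without their top cell (log2 ratio -1.66 and -1.55), and within cells with Flt3 or Zbtb46 Ccl17 (-1.91) was not called. In mature dendritic cells Ccl17 was at 30.6 CPM in IL-4/C1q EV, 496 in IL-1a/TNFa/C1q EV, 25.3 in UT EV and 69.2 in MAPS, and in oligodendrocytes it was at 0.323 CPM or below.

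Clec12a, an inhibitory lectin receptor for dead cells, was lower in IL-4/C1q EV (64.9 CPM, 15 of 59 cells) than in IL-1a/TNFa/C1q EV (188 CPM, 57 of 111 cells) and UT EV (182 CPM), and the call against IL-1a/TNFa/C1q EV held without the top cell and not within cells with Flt3 or Zbtb46 (log2 ratio -1.31). Bcl2a1a, an anti-apoptotic gene with near-identical copies, and 2310039H08Rik were called lower and lost the call without the top cell. Ly6d (161 against 367 CPM) and Cox6a2 (51.2 against 149 CPM) are plasmacytoid genes. Cox6a2 turned to 0.60 on the log2 scale without the plasmacytoid-marker members, of which IL-4/C1q EV Cd209a cells held 3 and IL-1a/TNFa/C1q EV Cd209a cells 12. The endothelial gene Cldn5 was higher in IL-4/C1q EV (400 CPM, 117 UMIs in 6 cells) than in IL-1a/TNFa/C1q EV (43.7 CPM) and UT EV (10.4 CPM). Of the 39 genes called higher than UT EV, 11 had their top cell in a single IL-4/C1q EV cell of 11643 UMIs that was a called doublet, and its part in Cldn5 was not tested. Over all cells Cldn5 was at 934, 537, 719 and 72.2 CPM.

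In the 3 comparisons between EV libraries in Cd209a cells 0.394% to 2.76% of all genes were called in a direction, so a count of 0 in a short list is near that background. MHC class II summed to 41150 CPM in IL-4/C1q EV, 43492 in IL-1a/TNFa/C1q EV, 36192 in UT EV and 37901 in MAPS, and 0 of its 11 measured genes were called in those comparisons. None of the measured MHC class I, cytokine, co-stimulation or cytokine receptor genes was called there either, and Tnf was at 71.7, 101, 115 and 135 CPM. Of the IL-4 response list, 2 genes had enough UMIs for IL-4/C1q EV over UT EV and neither was called. They were Mgl2, with 560 CPM in IL-4/C1q EV against 339 CPM in UT EV, and Ccl17, with 126 against 208 CPM. Mgl2 is also a type 2 marker, and the alternative activation genes Arg1, Chil3 and Retnla had no UMI in either subset.

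UT EV over MAPS gave more calls, 185 higher (15.3% of 1212) and 212 lower (17.5%), from 34 and 13 cells. With TMM scaling, which raised log2 ratios of this pair by 0.81, the split was 475 higher and 40 lower, so the counts in each direction depend on the scaling. MAPS cells had more mitochondrial UMIs (median 0.945% of members against 0.274% in UT EV). Ccl17 had 40 UMIs in 8 cells of UT EV against none in MAPS, at least 6.69-fold higher when MAPS is set at 3 counts, and with a lower bound of 5.20-fold by the interval used for the other ratios. Siva1, an apoptosis-related gene, had 39 UMIs against none, at least 6.53-fold higher on the same floor, with a lower bound of 5.06-fold. Bst2, the interferon-induced tetherin, had 1245 CPM in UT EV against 145 CPM in MAPS. H2ac24, a histone gene with near-identical copies, had 557 against 41.5 CPM and lost the call without its top cell. Over all cells Bst2 was at 559 against 167 CPM and Siva1 at 91.4 against 29.6 CPM. H2ac24 was at 329 against 239 CPM there and Ccl17 at 3.11 against 0.419 CPM. In oligodendrocytes Bst2 had 105 against 27.2 CPM, Siva1 148 against 47.8 CPM and H2ac24 50.5 against 26.2 CPM. Ccl17 had 0 against 0.143 CPM in them. Lower in UT EV were Klf4, a factor of type 2 cells and monocytes (72.9 against 778 CPM), Tgfbi (31.3 against 477 CPM), Ccl9 (52.1 against 498 CPM) and Zfp36l2, an mRNA decay factor (182 against 1121 CPM). These 4 held without their top cell, the lowest ratio being -3.59 on the log2 scale for Tgfbi. Over all cells Klf4 was at 91.5 CPM in UT EV against 425 CPM in MAPS, Zfp36l2 at 122 against 521 CPM, Ccl9 at 49.1 against 97.6 CPM and Tgfbi at 18.3 against 32.4 CPM. In oligodendrocytes these 4 were lower in UT EV too, such as Klf4 with 19.7 against 72.8 CPM and Zfp36l2 with 30.7 against 137 CPM.

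In Xcr1/Clec9a cells the numbers were smaller and single cells weighed more. IL-4/C1q EV had 18 genes called higher than UT EV (1.61% of 1118) and 44 lower (3.94%), of which 5 and 4 remained without the top cell of each gene. One UT EV cell of 27294 UMIs, with 998 UMIs of C1q genes, Apoe, Lyz2 and Spp1 and not called a doublet, topped 35 of the 44. Without it 16 were higher and 11 lower. Ifi211, of the interferon-inducible Ifi200 family, had 450 CPM in 25 of 29 cells in IL-4/C1q EV against 155 CPM in 14 of 17 cells in UT EV, and the call held without its top cell. Gm34084, a gene without an assigned name, had 121 against 694 CPM and also held. Ccnd2, Hat1 and Msn were higher and Lyz2, AW112010 and Lgals3 lower, and none of these 6 was called without its top cell. On the interferon list 4 of 6 genes were higher and none was called, with a median log2 ratio of 0.28 beside 0.0 over all genes. Isg15 had 790 CPM in IL-4/C1q EV, 201 in IL-1a/TNFa/C1q EV, 457 in UT EV and 8.5 in MAPS.

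IL-1a/TNFa/C1q EV over UT EV gave 9 higher (0.706% of 1275) and 47 lower (3.69%) genes in Xcr1/Clec9a cells, of which 3 and 2 remained without the top cell of each gene. The UT EV cell above topped 39 of the 47, and without it 13 were higher and 11 lower. With TMM scaling the split was 15 higher and 31 lower. Il12b, the shared subunit of interleukin-12 and interleukin-23 by which type 1 cells drive T helper 1 and CD8 responses, had 40 UMIs in 9 of 48 cells (152 CPM) in IL-1a/TNFa/C1q EV against 2 UMIs in 1 of 17 cells (16.3 CPM) in UT EV, a ratio of 9.29 (2.41 to 79.4). It had 12 UMIs in 4 of 29 cells in IL-4/C1q EV and none in MAPS, and the call held without the top cell. Mature dendritic cells carried more, with 367, 701, 607 and 1107 CPM in IL-4/C1q EV, IL-1a/TNFa/C1q EV, UT EV and MAPS. The 14 genes listed for mature cells, Ccr7 and Fscn1 left out, were also compared in Xcr1/Clec9a cells. They summed to 994 CPM in IL-1a/TNFa/C1q EV against 596 CPM in UT EV, and 1 of 3 measured was called higher, beside 0.706% of all genes. Tbc1d4 was higher, and Pkm, Sod2, Lgals3 and Neat1 lower, and none of these 5 was called without its top cell.

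IL-4/C1q EV over IL-1a/TNFa/C1q EV, added after the other values were seen, gave 33 higher (2.32% of 1423) and 22 lower (1.55%) genes in Xcr1/Clec9a cells. Without the top cell of each gene 14 and 12 remained. With TMM scaling the split was 24 higher and 34 lower, so the balance of directions depends on the scaling. Ccnd1, cyclin D1, had 282 CPM in 21 of 29 cells in IL-4/C1q EV, 26.6 CPM in 6 of 48 cells in IL-1a/TNFa/C1q EV, 163 CPM in UT EV and 170 CPM in MAPS, so IL-1a/TNFa/C1q EV was the low library. Its log2 ratio was 3.41, and 3.27 without the top cell. In Cd209a cells Ccnd1 was at 328, 155, 234 and 311 CPM, in the same order of libraries. In Xcr1/Clec9a cells Ccnd2 was also called higher, with 179 CPM in 10 of 29 cells against 26.6 CPM in 4 of 48 cells. Of the proliferation list, 2 of 2 measured genes were called higher, beside 2.32% of all genes, and the list summed to 1268 against 482 CPM. Isg15 and Ifi27l2a were higher and held, with log2 ratios of 1.97 and 1.57. All 6 measured genes of the interferon list were higher and 3 called (Isg15, Irf7 and Bst2), with a median of 0.93 beside 0.07. Bst2 is also on the plasmacytoid list, of which 2 of 2 measured genes were called higher, beside 2.32% of all genes. Ly6d of that list had 254 against 0 CPM, and each library held 1 plasmacytoid-marker cell in this subset. Irf7 was not called without its top cell (log2 ratio 1.31). Lower were Gm34084 (121 against 592 CPM), 2410006H16Rik (720 against 2185 CPM) and Hivep2 (2 UMIs in 2 of 29 cells against 29 UMIs in 21 of 48 cells), which held without their top cell. Cxcl9 (150 against 444 CPM) did not.

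Macrophage transcripts differed between the same Xcr1/Clec9a cells. Summed over 14 genes they stood at 3631 CPM in IL-4/C1q EV, 15369 in IL-1a/TNFa/C1q EV, 2596 in UT EV and 1955 in MAPS. For IL-4/C1q EV over IL-1a/TNFa/C1q EV, 5 of 5 measured genes were called lower (C1qa, C1qb, C1qc, Apoe and Ms4a7), beside 1.55% of all genes, and for IL-1a/TNFa/C1q EV over UT EV 3 of 6 were called higher, beside 0.706%. In IL-1a/TNFa/C1q EV, 3 cells gave 88.6% of the UMIs of the list. The medians per cell were 1513, 1658, 1431 and 1916 CPM, and without the top cell of each library the sums were 2943, 7946, 1597 and 2082 CPM. In Cd209a cells the sums were 6733, 3418, 7678 and 3362 CPM, and 3087, 2277, 3223 and 2208 CPM without the top cell. The part of these transcripts in the calls between libraries was not tested.

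**Figure D5:**
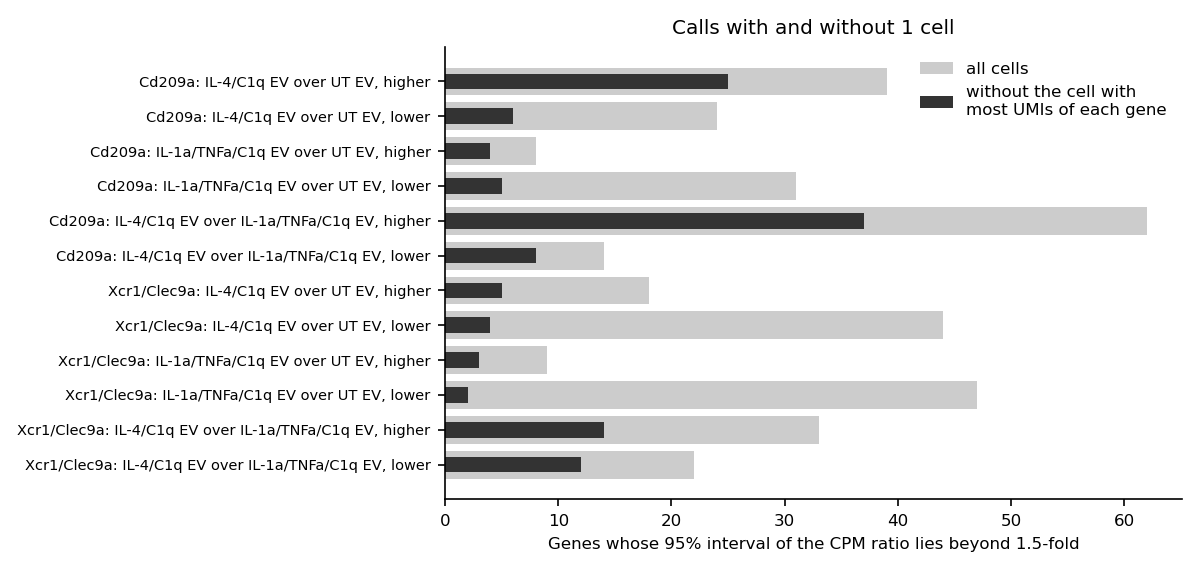
Number of genes called beyond 1.5-fold (x axis) in 6 comparisons between EV libraries, higher and lower apart (rows), with all cells (grey) and without the cell with most UMIs of each gene (dark). Higher calls of IL-4/C1q EV in Cd209a cells keep the largest share, 25 of 39 and 37 of 62, and lower calls against UT EV the smallest, such as 2 of 47 in Xcr1/Clec9a cells.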

How the data were processed

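The deposited files are matrices of raw UMI counts of 55357 genes in single cells, 1 for each of 4 libraries. Per the labels the chemistry was 10x Chromium 3′ v3. The count matrices were written by Cell Ranger 8.0.1 per the file headers, whereas the submitters' processing notes name bcl2fastq 5.0.1, Cell Ranger 7.0.0, Seurat 4.1.0 and build GRCm39. Per the labels' protocols the cells came from enzymatic digestion with collagenase and papain, followed by removal of dead cells with beads. Enzymatic digestion can change early-response and heat shock transcripts.

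A cell needed 500 UMIs and 300 genes, with no more than 20% of its UMIs mitochondrial. Doublets were called per library with scrublet (scanpy 1.11.5) and stayed in, their removal being an alternative. UMIs were summed per library and subset and scaled to counts per 1000000 UMIs of the subset (CPM). Ratios carry exact conditional binomial 95% intervals, sums exact Poisson and shares exact Clopper-Pearson intervals (scipy 1.17.1, numpy 2.4.6, pandas 2.3.3, Python 3.11.15). UMIs are counted molecules, yet cells of 1 library are not independent samples. A subset contrast required 2-fold within each of 4 libraries, with a count of 0 set at 3 counts. Mature dendritic cells had Ccr7 and Fscn1. Monocytes had Ccr2 and Ly6c2, and macrophages Ms4a7 and C1q genes. Oligodendrocytes had at least 20 UMIs over 5 myelin genes and fewer than 5 of Cd74. The ratio code was tested on simulated counts.

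Named genes had at least 30 UMIs in the 2 sums, a UMI in at least 5 cells of the higher library, an interval beyond 1.5-fold and a level no lower than over all cells. They were ranked by the interval bound nearest 1, with the first 6 a side named in Cd209a cells among EV libraries, the first 4 elsewhere, the first 10 a side between subsets and up to 4 members of a list with the largest absolute log2 ratio. Mitochondrial, ribosomal, haemoglobin, immunoglobulin, T cell receptor and sex-linked genes and markers of other cell classes were left out of that ranking. Outside this rule, Cldn5, Tnf, Cst3, Arg1, Chil3, Retnla, the macrophage genes and Ccnd1 in Cd209a cells were chosen after their values were seen. Members, lists and comparisons were chosen with earlier results of these data known.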

Additional observations from a re-analysis of the deposited data

How the results depend on the processing

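No paired analysis was possible because each group is 1 library. Shares of conventional dendritic cells in IL-4/C1q EV, IL-1a/TNFa/C1q EV and UT EV were 0.4999%, 0.838% and 0.247% with cells thinned to 2000 UMIs before the rule, where Xcr1/Clec9a cells were 19.7% of assigned cells in IL-1a/TNFa/C1q EV. With 3 dendritic UMIs required the shares were 0.419%, 0.654% and 0.282%. The following counts are genes of Cd209a cells called higher and lower. For IL-4/C1q EV over UT EV they were 19 and 13 with a minimum of 100 UMIs, 19 and 13 in cells with Flt3 or Zbtb46, and 15 and 5 with cells thinned after the rule. The lower count was 68 with no UMI minimum and 44 over all conventional dendritic cells. For IL-1a/TNFa/C1q EV over UT EV they were 23 and 17 with TMM, 23 and 18 with median-of-ratios factors, 4 and 16 with 100 UMIs, and 2 and 6 thinned. The lower count was 88 with no minimum, 50 over all cells and 7 in cells with Flt3 or Zbtb46. For IL-4/C1q EV over IL-1a/TNFa/C1q EV they were 103 and 25 with no minimum and 28 and 9 thinned. The higher count was 28 with 100 UMIs and 13 in cells with Flt3 or Zbtb46, and the lower count 23 with TMM, 22 with median-of-ratios factors and 8 without plasmacytoid-marker members. For UT EV over MAPS they were 475 and 40 with TMM, 456 and 54 with median-of-ratios factors, 107 and 58 with 100 UMIs, 42 and 41 thinned, 113 and 113 in cells with Flt3 or Zbtb46, and 317 and 670 over all cells, with 709 lower with no minimum. In Xcr1/Clec9a cells, IL-1a/TNFa/C1q EV over UT EV gave 15 and 31 with TMM. IL-4/C1q EV over IL-1a/TNFa/C1q EV gave 24 higher and 34 lower with TMM and 16 higher without called doublets, and IL-4/C1q EV over UT EV 7 higher without them. The cause of these shifts was not tested, other than the fewer genes or UMIs that a minimum, thinning or fewer cells leave.

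Of 944 recomputed ratios of 116 gene results, 783 kept direction and side of the threshold, 118 lost the call, 6 gained it and 37 changed direction. The 37 are given here as log2 ratios. Over all conventional dendritic cells, Cxcl9 was at -0.54 for IL-4/C1q EV and -0.53 for IL-1a/TNFa/C1q EV over UT EV, and Apoe at -0.74 and Trem2 at -0.43 for IL-4/C1q EV over IL-1a/TNFa/C1q EV. In Cd209a cells with Flt3 or Zbtb46, IL-4/C1q EV over UT EV gave -0.11 for Oas1a, 0.77 for Fabp5, 1.56 for Trem2 and -1.99 for Ly6c2. IL-1a/TNFa/C1q EV over UT EV gave -1.41 for Ccl17, 0.24 for Prdx1, 0.35 for Lgals1, 1.13 for Ifit3, 1.96 for Isg15, 0.62 for Zbp1, 0.24 for Fabp5, 1.47 for Trem2, 0.55 for Ctsd and -0.0853 for Plac8. IL-4/C1q EV over IL-1a/TNFa/C1q EV gave -2.83 for Cxcl10. Zbp1 was at 0.0300 for IL-1a/TNFa/C1q EV over UT EV with cells thinned, and Cox6a2 at 0.60 without plasmacytoid-marker members. Without the cell with most UMIs of the gene, IL-4/C1q EV over UT EV gave 0.0598 for Prdx1, 0.30 for Spp1 and 1.04 for Trem2. IL-1a/TNFa/C1q EV over UT EV gave 0.23 for Prdx1, 0.24 for Ifit3, 0.50 for Isg15, 0.16 for Spp1, 0.30 for Trem2, 0.0442 for Ctsd, 0.26 for Lyz2 and 0.12 for Cd14, and Apoe was at -0.21 for IL-4/C1q EV over IL-1a/TNFa/C1q EV. In Xcr1/Clec9a cells Lgals3 was at 0.11 and Zbp1 at 0.57 for IL-4/C1q EV over UT EV, and Sod2 at 0.28 and Lgals3 at 0.44 for IL-1a/TNFa/C1q EV over UT EV. Leaving out the cell with most UMIs or the plasmacytoid-marker members, and every alternative in Xcr1/Clec9a gene calls between libraries, were chosen after seeing the data. Counts of 12 to 111 cells a subset limit what can be called, and with 1 library a group no spread between animals can be had.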
